A study of Saccharomyces cerevisiae with 27 samples.

Results

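The transition from the late diauxic shift to stationary phase was followed in budding yeast grown with CRCM, the concentrated conditioned medium of calorie-restricted cultures. The comparison was defined by the sample labels: the 3 libraries of CRCM cultures at 96 h were set against the 3 libraries of CRCM cultures at 24 h, 6 of the 27 libraries in the series. All cells were BY4741, a haploid MATa laboratory strain with deletions at HIS3, LEU2, MET17 (MET15) and URA3, grown in synthetic complete medium with 2% glucose. CRCM was added at 2% of the culture volume when the cultures were inoculated. Cultures that received water, or the conditioned medium of nonrestricted cultures (NRCM, also at 2%), were sampled at the same 2 times, with 3 libraries a group, and were used only to ask whether a change was particular to CRCM. Conditioned medium is a mixture, so a change cannot be assigned to any component of it. The sources call the 3 replicates biological but do not say whether the same flask was sampled at 24 h and again at 96 h.

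When yeast has used up its glucose it passes through the diauxic shift, turns to the ethanol and acetate it has made, and raises respiration, gluconeogenesis and the synthesis of storage carbohydrate. When those carbon sources also run out, the cells stop dividing and enter stationary phase, in which survival over days is scored as chronological life span. Transcripts for ribosomes, mitochondria and nutrient transporters are known to follow these stages because their regulators respond to carbon, phosphate, zinc and nitrogen supply.

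The 6 libraries held between 7817075 and 114316137 reads assigned to genes. MET17 had 0 reads in every library, and LEU2 and URA3 were at most at 0.0862 CPM (reads of a gene per 1000000 gene-assigned reads) outside CRCM 96 h replicate 3. HIS3, of which the strain carries a partial deletion, kept reads in all 6 libraries, at 40.5 to 58.4 CPM, so it does not check the strain. The a-specific transcripts STE2 (185.7 to 289.6 CPM), MFA1 and MFA2, which mark MATa cells, were present in all 6. Reads of alpha-specific genes were present as well. STE3 was at 33.9 to 60.4 CPM, SAG1 at 85.3 to 147.1 CPM and MF(ALPHA)1 at 6.01 to 13.2 CPM, so these transcripts alone do not check the mating type. CRCM 96 h replicate 3 stood apart. LEU2 reached 68.1 CPM (541 reads) and URA3 11.7 CPM (93 reads) in it, while no other library of the 27 exceeded 0.174 CPM for LEU2 or 0.177 CPM for URA3. The summed level of the mitochondrial genome was 9631 CPM in it, against 341.5 and 448.9 CPM in replicates 1 and 2 at 96 h. At 96 h, 135 genes were over 2-fold higher and 11 over 2-fold lower in replicate 3 than in both other replicates. Counts of genes higher and lower at 96 h, over all genes and in the gene lists, are therefore given with and without replicate 3. Counts by size of change and by sequence motif are given only with it, and the part of this library in each result was otherwise not tested.

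Of 6570 genes tested with limma on log2(CPM + 1), 1581 (24.1%) were higher at 96 h than at 24 h with CRCM and 1678 (25.5%) were lower at an adjusted p under 0.05. The change was over 2-fold for 433 of the higher and 330 of the lower genes, and over 4-fold for 74 and 32. Over all genes tested, the log2 fold change had a median of 0.01. The 3 libraries at 96 h did not overlap the 3 at 24 h for 62.4% of all genes tested. Without replicate 3 at 96 h, 2093 genes were higher and 1932 lower, of which 1534 and 1636 were shared with the full comparison. No called gene changed direction, but this was nearly fixed in advance. The groups did not overlap for 3244 of the 3259 called genes, and leaving out a library can hardly reverse those. Without CRCM 24 h replicate 2, 1007 genes were higher and 1169 lower. The balance of directions rested on the scaling between libraries: the TMM factors used here put 48.5% of calls in the higher direction, and plain CPM without them put 60.5% there, with a median log2 fold change over all genes of 0.12.

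Among the largest increases were genes for nutrient uptake, fermentation and the spore wall. CDA2, a chitin deacetylase of the spore wall, was at 44.9, 46.4 and 42.3 CPM at 96 h and at 0.908, 1.84 and 0.879 CPM at 24 h, a log2 fold change of 4.39 ± 0.18 (SE). Its neighbour CDA1 rose by 2.21. LDS1, which also acts in spore wall formation, was at 33.5, 32.0 and 29.8 CPM at 96 h and at 2.82, 2.11 and 2.65 CPM at 24 h. SPS100, another spore wall gene, averaged 1131 ± 386 CPM at 96 h and 221 ± 39.5 CPM at 24 h (SD, n = 3 each). BY4741 is haploid and does not sporulate, and of the 31 meiosis and spore wall genes listed, 9 were higher and 8 lower (11 and 9 without replicate 3), and 5 were lower without CRCM 24 h replicate 2 and without CRCM 24 h replicate 3. YMR244W, an uncharacterized open reading frame, averaged 253 ± 10.8 CPM at 96 h and 20.4 ± 5.51 CPM at 24 h. DAL80, a GATA repressor of nitrogen-regulated genes, rose by 3.38 on the log2 scale, as did YKR033C by 3.33, an open reading frame absent from the RefSeq annotation that lies opposite DAL80 and whose reads cannot be told from those of DAL80 where strand was not used in counting. YMR141W-A, likewise absent from the annotation, rose by 3.29. All 12 of the largest increases stayed called when any single library was left out, though the call without CRCM 96 h replicate 3 was a condition of their choice.

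The largest decreases included genes of the cell surface, of sugar use and of respiration. YGP1, a secreted glycoprotein induced by nutrient limitation, was at 326, 424 and 352 CPM at 96 h and at 4627, 4459 and 4706 CPM at 24 h, a log2 fold change of -3.65 ± 0.13 (SE). SPI1, a cell wall protein induced on entry into stationary phase, was at 527, 660 and 340 CPM at 96 h and at 5866, 4911 and 5175 CPM at 24 h. SUC2, the glucose-repressed invertase, was at 91.7, 108 and 75.1 CPM at 96 h and at 799, 736 and 745 CPM at 24 h. CIP1, an inhibitor of the cyclin-dependent kinase, fell by 3.35 on the log2 scale. CYC7, the minor isoform of cytochrome c, fell by 3.18, EHT1, an acyltransferase of ethyl ester synthesis, by 2.72, and PHD1, a transcription factor of pseudohyphal growth, by 2.56. ROG3, an arrestin of the ubiquitin pathway, fell by 2.68, and so did AIM17, of unknown function, by 2.68. YDR133C, which fell by 2.69, is another open reading frame with no entry in the annotation.

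**Figure D1:**
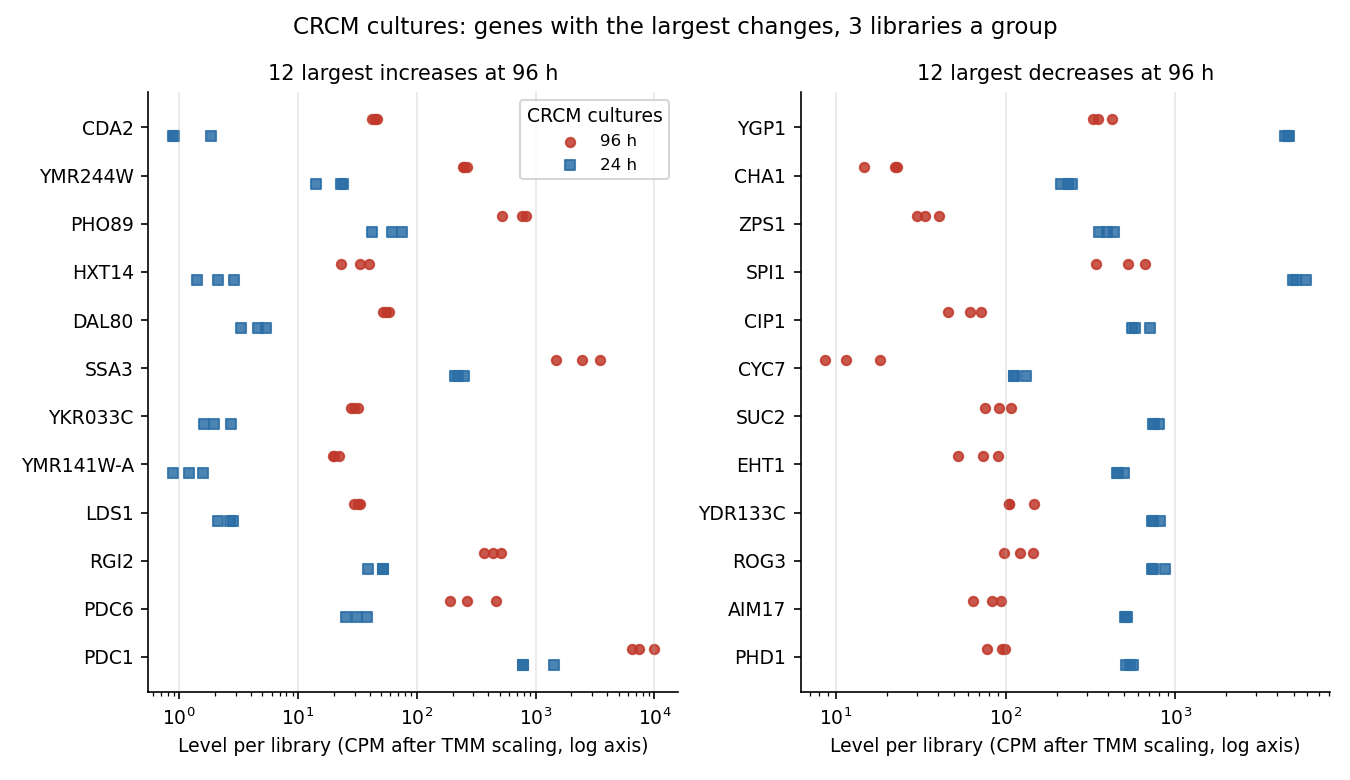
Level of the 12 genes with the largest increases and the 12 with the largest decreases at 96 h in CRCM cultures, in CPM after TMM scaling on log axes, with circles for the 3 libraries at 96 h and squares for the 3 at 24 h. The genes were drawn from those without overlap between the groups, which held for 62.4% of all genes tested, and the spread among 96 h replicates is widest for SSA3 (1493 to 3512 CPM) and PDC6 (191 to 464 CPM).

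Phosphate uptake genes rose at 96 h. When phosphate is short, the transcription factor Pho4 enters the nucleus and activates the PHO genes, which encode high-affinity transporters and secreted phosphatases. PHO89, the sodium-coupled transporter, was at 525, 830 and 769 CPM at 96 h and at 42.3, 61.9 and 75.1 CPM at 24 h, a log2 fold change of 3.55 ± 0.25 (SE, adjusted p = 0.000128). PHO84, the proton-coupled transporter, was at 537, 839 and 866 CPM at 96 h and at 212, 185 and 189 CPM at 24 h, a log2 fold change of 1.90 ± 0.19. PHM6, of unknown function, rose by 2.14, and SPL2, a regulator of low-affinity phosphate uptake, by 1.12. The secreted acid phosphatase PHO5 and the vacuolar phosphatase PHO8 fell by 0.52 and 0.64, and VTC1, of the polyphosphate polymerase, fell by 0.53. Of the 17 genes listed, 7 were higher and 4 lower (8 and 5 without replicate 3), with a median log2 fold change of 0.28 against 0.01 over all genes. The acid phosphatase PHO11 was among the higher genes, at 0.32, so the phosphatases of the list did not move in 1 direction.

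The promoters of both transporters are shown because they carry the motif by which Pho4 is known to act. The first sequence lies on chromosome II at chrII:798825-799000, upstream of PHO89 (minus strand, open reading frame 796798 to 798522), and the second at chrXIII:26042-26251, upstream of PHO84 (minus strand, open reading frame 24037 to 25800), both in the R64 assembly (sacCer3) and read toward the gene. Capitals mark CACGTG, and CACGTT or its complement AACGTG.
PHO89: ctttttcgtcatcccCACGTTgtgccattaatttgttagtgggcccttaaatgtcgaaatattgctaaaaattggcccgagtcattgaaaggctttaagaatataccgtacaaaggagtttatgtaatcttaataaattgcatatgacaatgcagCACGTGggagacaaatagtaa
PHO84: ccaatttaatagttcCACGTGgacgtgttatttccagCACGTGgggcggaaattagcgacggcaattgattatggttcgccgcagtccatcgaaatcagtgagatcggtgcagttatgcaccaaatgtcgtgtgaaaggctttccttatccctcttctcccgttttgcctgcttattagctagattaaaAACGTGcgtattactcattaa
On either strand of the 500 bases before the start codon, CACGTG was found in 6.27% of the 5915 tested genes with an annotated nuclear position and in 6 of the 69 such genes that were over 4-fold higher (8.70%). The list itself was drawn from known Pho4 targets.

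Iron, zinc and vitamin genes moved in different directions. Of 25 genes of the iron regulon, 10 were higher and 7 lower (11 and 8 without replicate 3), and the higher genes included those of siderophore uptake and of the high-affinity iron permease FTR1, which rose by 1.34. TIS11 (CTH2), which promotes decay of mRNAs for iron-using proteins, averaged 199 ± 16.2 CPM at 96 h and 30.1 ± 7.91 CPM at 24 h. FIT3, a cell wall protein that retains siderophores, rose by 2.30, and ENB1, the enterobactin transporter, by 2.14, with 166 CPM in replicate 3 and 75.6 and 97.7 CPM in replicates 1 and 2 at 96 h. The mitochondrial iron carrier MRS4 fell by 1.04.

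Zinc-responsive genes fell. Zap1 activates zinc uptake genes, its own gene among them, when zinc is low. Of 11 listed genes 10 were lower and 0 higher (10 and 1 without replicate 3), with a median log2 fold change of -0.73. Their summed level, scaled over 18 libraries, averaged 4150 ± 381 CPM at 96 h and 11488 ± 119 CPM at 24 h (SD, n = 3 each). It fell in the other cultures too, averaging 2265.5 ± 453 and 18843 ± 1347 CPM with water and 1840 ± 195 and 10698 ± 2217 CPM with NRCM. ZPS1, a secreted protein of the zinc response, was at 33.7, 40.3 and 30.2 CPM at 96 h and at 354, 396 and 433 CPM at 24 h, a log2 fold change of -3.47 ± 0.13 (SE). ZRT1, the high-affinity zinc transporter, averaged 2565 ± 388 CPM at 96 h and 8601 ± 117 CPM at 24 h, and ZAP1 fell by 1.59. The alcohol dehydrogenase ADH4, which zinc shortage induces, was at 55.3, 54.7 and 56.5 CPM at 96 h and at 164, 159 and 178 CPM at 24 h. The promoter of ZPS1 at chrXV:34314-34369 (plus strand, R64) is shown with its pair of matches to the Zap1 motif in capitals, found on either strand in 1.08% of all promoters examined.
ZPS1: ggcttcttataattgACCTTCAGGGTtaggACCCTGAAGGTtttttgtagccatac

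Genes of vitamin B6 and thiamine synthesis rose together: 18 of 21 were higher and 0 lower, with and without replicate 3, with a median of 0.77. SNZ1, of pyridoxal phosphate synthesis, was at 1811, 1973 and 1703 CPM at 96 h and at 293, 339 and 339 CPM at 24 h, and its divergently transcribed partner SNO1 was at 142, 152 and 143 CPM at 96 h and at 37.8, 39.3 and 42.3 CPM at 24 h. THI4, of thiazole synthesis, was at 163, 102 and 73.0 CPM at 96 h and at 31.6, 40.6 and 40.6 CPM at 24 h. THI5 rose by 2.04, but THI5, THI11, THI12 and THI13 are near-identical copies whose reads the alignment could have split among them.

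Cytosolic ribosomal protein genes and mitochondrial ribosomal protein genes moved in opposite directions. Of 137 cytosolic ribosomal protein genes, 129 were higher and 0 lower at 96 h, with a median log2 fold change of 1.47. Without CRCM 96 h replicate 3, 118 were higher (median 1.31). Leaving out CRCM 24 h replicate 1, 2 or 3 gave 133, 88 and 102 higher genes (medians 1.80, 1.37 and 1.23), with 0 lower. Their summed level was 30142, 31213 and 43639 CPM in the 96 h libraries, against 21577, 12150 and 10252 CPM in the 24 h libraries, with the library scaling of the 18 CRCM, water and NRCM libraries at both times. Replicate 3 was the highest of the 96 h libraries and replicate 1 the highest of the 24 h libraries, and the groups did not overlap. RPS11A was at 275, 276 and 314 CPM at 96 h and at 115, 52.4 and 39.1 CPM at 24 h (log2 fold change 2.20 ± 0.35, SE). RPL43A was at 294, 294 and 349 CPM at 96 h and at 118, 59.0 and 51.1 CPM at 24 h. RPL31B rose by 2.33, with 222 CPM in replicate 3 at 96 h as the highest of the 6 libraries. Many of these genes exist as near-identical pairs, so the values of single copies are uncertain. Of 90 genes of rRNA processing and ribosome assembly, which are known to follow ribosomal protein genes in growing cells, 12 were higher and 5 lower (12 and 9 without replicate 3), with a median of 0.25. Without CRCM 24 h replicate 1, 19 were higher and 2 lower. Without CRCM 24 h replicate 2, 2 were higher and 3 lower, and without CRCM 24 h replicate 3, 2 were higher and 2 lower. Without CRCM 96 h replicate 1 or replicate 2, 2 were lower. With plain CPM and no TMM factors, 21 were higher and 2 lower. Of 13 genes for RNA polymerase I, 0 were higher and 1 was lower (0 and 3 without replicate 3), and 2 were higher without CRCM 24 h replicate 1 and 1 without CRCM 96 h replicate 1.

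Of 69 mitochondrial ribosomal protein genes, 63 were lower and 0 higher at 96 h, with a median log2 fold change of -0.85 (66 lower without replicate 3). MRPS8, a small-subunit protein, was at 19.3, 18.7 and 19.5 CPM at 96 h and at 79.4, 85.9 and 75.2 CPM at 24 h, a log2 fold change of -2.01 ± 0.09 (SE, adjusted p = 3.58e-05). MRPL49 was at 33.9, 36.6 and 27.8 CPM at 96 h and at 110, 118 and 110 CPM at 24 h. MRPL50 averaged 49.7 ± 3.26 CPM at 96 h and 151 ± 2.81 CPM at 24 h. MRPL32 fell as well, and MRP1 fell by 1.39.

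Most mitochondrial ribosomal protein mRNAs are known targets of Puf3, an RNA-binding protein that controls their stability and translation according to carbon source and binds TGTANATA after the stop codon. The 5 sites below, in genes with the largest decreases of the list, are from the R64 assembly with 10 bases on each side and the element in capitals. The stretches shown begin 2 to 46 bases after the stop codon, at chrXIII:572762-572789 (plus strand), chrX:246978-247005 (plus strand), chrXIV:669720-669747 (minus strand), chrIII:119207-119234 (plus strand) and chrIV:1170184-1170211 (plus strand), in the order printed.
MRPS8: atacggaccaTGTAAATAataatattat
MRPL49: tttagggataTGTACATAtacgcatacg
MRPL50: cgtacaatctTGTATATAggcaacatcg
MRPL32: aacttaagccTGTATATAgaaacttaat
MRP1: tggtagtctcTGTAAATAtataaagtca
Within 250 bases after the stop codon and on the coding strand, the element was found in 68 of the 69 mitochondrial ribosomal protein genes (98.6%) and in 15.3% of the 5915 tested genes. Apart from that list, 838 genes held the element, of which 315 were lower (37.6%) and 140 higher (16.7%), with a median log2 fold change of -0.16. Of 5008 genes without it, 1181 were lower (23.6%) and 1288 higher (25.7%), with a median of 0.04. The motif and its window were added after the changes of this list had been seen.

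**Figure D2:**
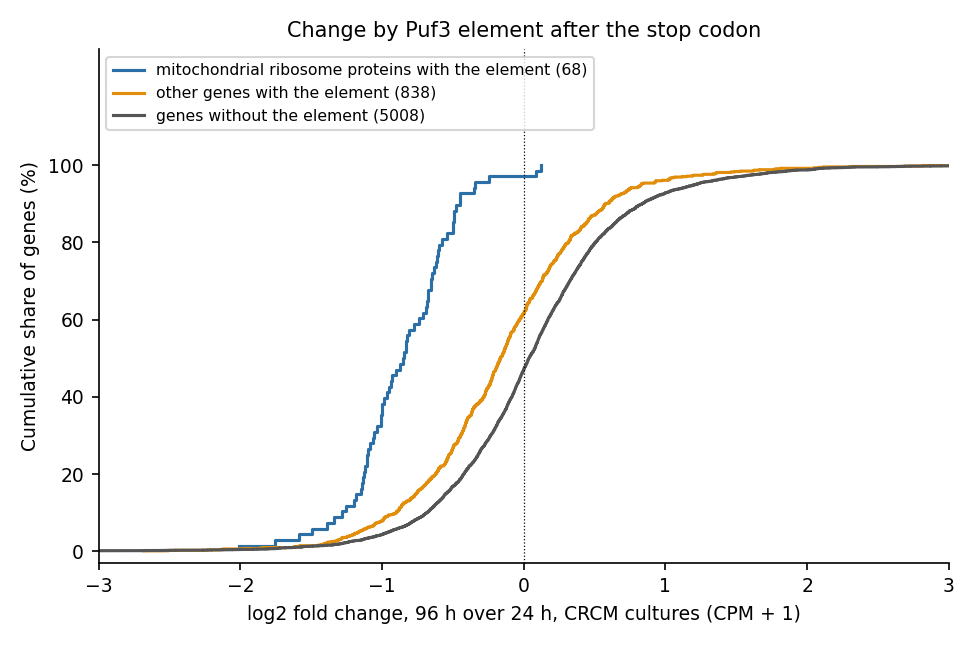
Cumulative share of genes (percent) by log2 fold change, 96 h over 24 h in CRCM cultures, for 68 mitochondrial ribosomal protein genes with the Puf3 element TGTANATA within 250 bases after the stop codon, 838 other genes with it and 5008 without it. The medians are -0.85, -0.16 and 0.04.

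Nuclear genes of respiration fell with the mitochondrial ribosome. Of 39 genes for the respiratory chain and ATP synthase, 32 were lower and 2 higher (36 and 2 without replicate 3), with a median of -0.89. RIP1, the Rieske protein of complex III, was at 560, 589 and 481 CPM at 96 h and at 1724, 1829 and 1922 CPM at 24 h. ATP2, the beta subunit of ATP synthase, averaged 2688 ± 264 CPM at 96 h and 7110 ± 397 CPM at 24 h, and CYC1, the major cytochrome c, fell by 1.55. The exceptions were NDE2, an external NADH dehydrogenase, which rose by 1.30, and STF1, a regulator of the ATP synthase inhibitor, which rose by 0.48. In the TCA cycle list 13 of 18 genes were lower and 1 was higher (15 and 1 without replicate 3). PYC1, pyruvate carboxylase, averaged 3295 ± 211 CPM at 96 h and 11057 ± 918 CPM at 24 h, and the succinate dehydrogenase genes SDH1, SDH2, SDH3 and SDH4 had log2 fold changes of -1.17, -1.39, -1.68 and -1.49. Of 7 tested genes of the mitochondrial genome, 3 were higher, but poly(A) selection captures these transcripts poorly and their summed level was set by CRCM 96 h replicate 3. Their median log2 fold change was 1.61 with replicate 3 and 1.04 without it, when 5 were higher and 1 lower. Without CRCM 24 h replicate 3, and without CRCM 96 h replicate 2, 1 was higher.

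Glycolytic and fermentative genes split by isoform. Of 21 listed genes, 12 were higher and 3 lower (12 and 4 without replicate 3), with a median of 0.72. PDC1, the major pyruvate decarboxylase of fermentation, was at 9837, 7353 and 6448 CPM at 96 h and at 1427, 786 and 778 CPM at 24 h, a log2 fold change of 3.02 ± 0.28 (SE). PDC6, its minor isoform, was at 464, 264 and 191 CPM at 96 h and at 25.4, 31.1 and 38.2 CPM at 24 h. PGK1, phosphoglycerate kinase, rose by 1.38 and CDC19, the main pyruvate kinase, by 1.36. The 3 genes that fell are isoforms known to be used when glucose is scarce: TDH1, which was at 2950, 2206 and 1374 CPM at 96 h and at 8334, 7570 and 7275 CPM at 24 h, and the glucose-phosphorylating enzymes GLK1 and HXK1, which fell by 1.58 and 1.25. ENO2 was at 950.9, 1028 and 2812 CPM at 96 h and at 1127, 425.8 and 306.9 CPM at 24 h in the 18-library scaling, so its groups overlapped.

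Hexose transporters also split. HXT6 and HXT7, high-affinity transporters with near-identical sequences, were at 2296, 2259 and 1739 CPM and at 2030, 1960 and 1597 CPM at 96 h, against 6191, 7302 and 7224 CPM and 5203, 5936 and 5927 CPM at 24 h. HXT4 fell by 1.74. HXT5, a transporter of slow growth and stationary phase, was at 4494, 3952 and 3421 CPM at 96 h and at 1184, 1619 and 1658 CPM at 24 h. HXT14, which is rarely expressed and is not known as a main glucose carrier, was at 39.6, 33.2 and 23.1 CPM at 96 h and at 1.41, 2.11 and 2.91 CPM at 24 h. HXT10 rose by 2.19. In all, 10 of 19 transporters and sensors were higher and 3 lower (11 and 4 without replicate 3 at 96 h), and 6 were higher without replicate 2 or without replicate 3 at 24 h.

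Genes for the use of nonfermentable carbon were mixed. Of 26 genes of gluconeogenesis, the glyoxylate cycle and acetate use, 5 were higher and 9 lower. Without CRCM 96 h replicate 3, 9 were higher and 10 lower, and with plain CPM and no TMM factors 9 were higher and 7 lower, so the balance of this list depended on the scaling. ADH2, the alcohol dehydrogenase that oxidizes ethanol, was at 693, 632 and 820 CPM at 96 h and at 226, 176 and 182 CPM at 24 h. FBP1, fructose-1,6-bisphosphatase, fell by 1.14 and JEN1, the lactate and pyruvate permease, by 0.97. In peroxisomal beta-oxidation 7 of 13 genes were higher and 0 lower. Without CRCM 96 h replicate 3, 11 were higher, and without CRCM 24 h replicate 1 or replicate 2, 4 were higher, with 1 lower in the first case. POT1, the thiolase, was at 254, 181 and 140 CPM at 96 h and at 35.2, 45.7 and 50.0 CPM at 24 h. Storage carbohydrate genes fell in 11 of 20 cases and rose in 1 (11 and 2 without replicate 3). GSY2, the main glycogen synthase, was at 192, 198 and 182 CPM at 96 h and at 765, 821 and 815 CPM at 24 h, and GPH1, glycogen phosphorylase, fell by 2.05, with 98.2 CPM in replicate 3 and 234 and 190 CPM in replicates 1 and 2 at 96 h.

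Chaperones rose more often than they fell, and the general stress genes did not move as a group. Of 24 chaperone genes of the heat shock response, 13 were higher and 3 lower (14 and 3 without replicate 3), with a median of 0.45. SSA3, an Hsp70 that is induced after the diauxic shift, was at 3512, 2479 and 1493 CPM at 96 h and at 211, 223 and 250 CPM at 24 h, a log2 fold change of 3.36 ± 0.29 (SE). The J-proteins YDJ1 and SIS1 rose by 1.26 and 1.12, whereas of the mitochondrial chaperones SSC1 and HSP60 fell by 0.85 and 0.63 and HSP78 rose by 0.65. The promoter of SSA3 is shown at chrII:86630-86666 (minus strand, R64) because it holds the post-diauxic shift element TAGGGAT, in capitals, which was present in 2.86% of the 5915 promoters.
SSA3: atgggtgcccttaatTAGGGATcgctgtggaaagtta
No AGGGG, the stress response element (STRE) bound by Msn2 and Msn4, was found in the same 500 bases. AGGGG on either strand was found in 34.0% of all promoters, in 27.5% of the 69 promoters of genes over 4-fold higher and in 69.0% of the 29 promoters of genes over 4-fold lower. By the number of AGGGG matches, 25.4% of genes with 0 matches were lower at 96 h, 414 of the 1532 with 1, 30.8% of those with 2 and 36.1% of the 108 genes with 3 or more.

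Of 37 genes of stationary phase and general stress, 6 were higher and 14 lower, with a median of -0.12. Without CRCM 96 h replicate 3, 15 were higher and 13 lower, and the median was 0.15. RGI2, a respiratory growth gene, was at 510, 438 and 368 CPM at 96 h and at 38.5, 51.6 and 52.4 CPM at 24 h. GRE1, a hydrophilin of desiccation stress, was at 8528, 4994 and 3045 CPM at 96 h and at 835, 1096 and 1262 CPM at 24 h, lowest at 96 h in replicate 3. RIM15, the kinase that governs entry into quiescence, rose by 1.25. HSP31, a glutathione-independent glyoxalase, fell by 1.82.

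**Figure D3:**
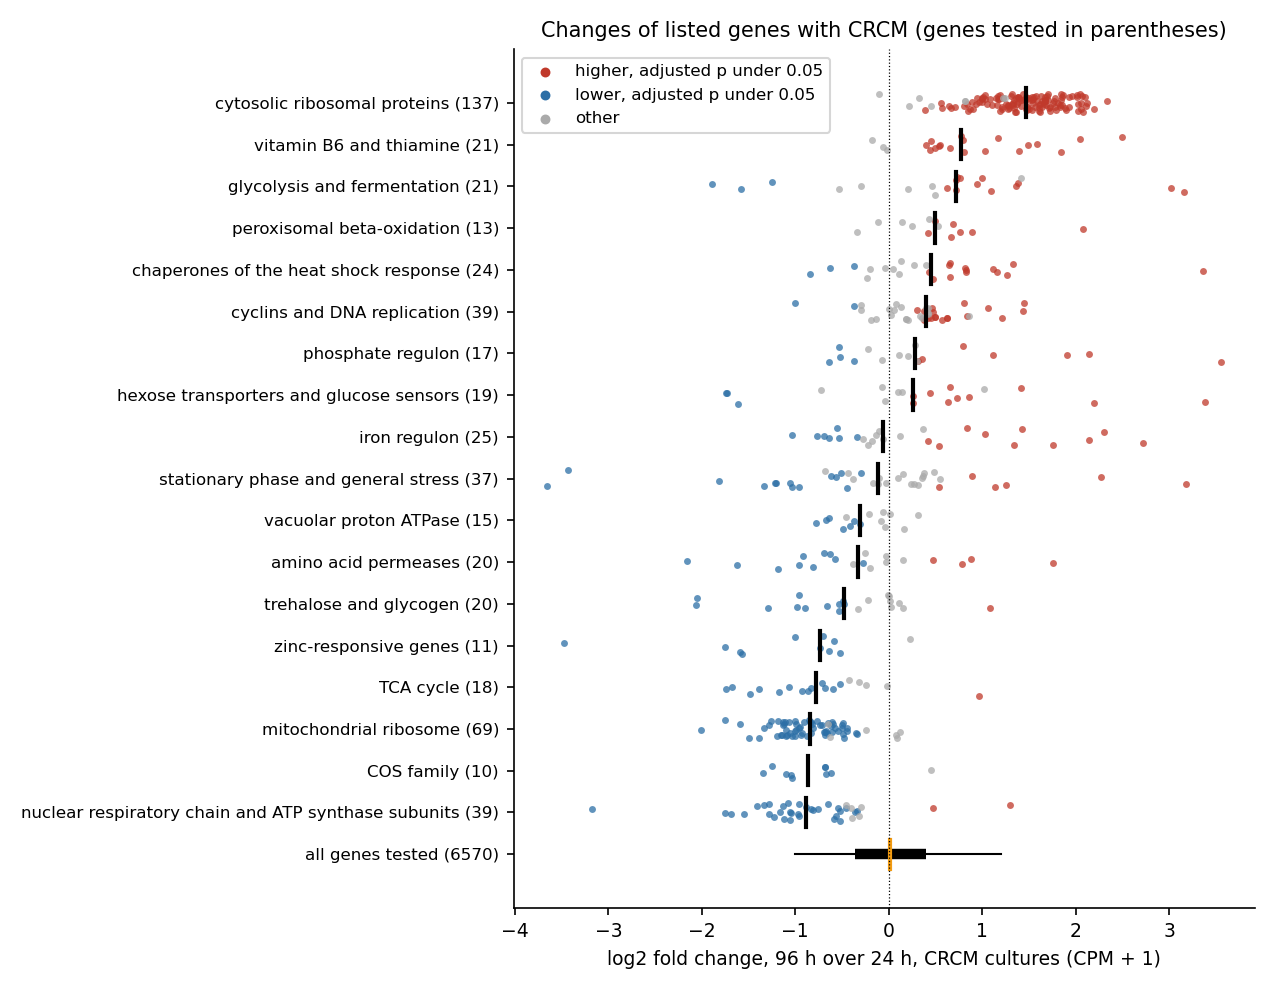
log2 fold change (96 h over 24 h, CPM + 1) of each tested member of 18 gene lists in CRCM cultures, 1 point a gene, red for higher, blue for lower and gray for genes not called, with a black bar at each list's median. The bottom row gives the median (orange), the middle 50% (thick line) and the middle 90% (thin line) of all 6570 genes tested. Cytosolic ribosomal proteins (median 1.47) and the mitochondrial ribosome (median -0.85) lie on opposite sides of 0.

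Genes of amino acid and nucleotide metabolism changed in both directions. CHA1, the serine and threonine deaminase that serine induces, was at 14.6, 22.4 and 22.8 CPM at 96 h and at 245, 233 and 212 CPM at 24 h, a log2 fold change of -3.49 ± 0.17 (SE, adjusted p = 4.81e-05). SER3, of serine synthesis, was at 79.8, 90.7 and 88.7 CPM at 96 h and at 310, 319 and 295 CPM at 24 h. The glycine cleavage genes went the other way. GCV1 was at 144, 139 and 127 CPM at 96 h and at 43.5, 38.2 and 41.2 CPM at 24 h. GCV2, GCV3 and the serine hydroxymethyltransferase gene SHM2 rose by 1.35, 1.34 and 1.15. In the list of serine and one-carbon metabolism, 10 of 24 genes were higher and 5 lower (11 and 6 without replicate 3). Of 52 amino acid synthesis genes under Gcn4, 11 were higher and 15 lower (12 and 21 without replicate 3). These shares, 21.2% and 28.8%, were near the 24.1% and 25.5% over all genes tested. Of 20 amino acid permeases, 4 were higher and 10 lower (5 and 11 without replicate 3). GAP1, the general permease, rose by 1.76, and BAP3, a permease of branched-chain amino acids, was at 206, 247 and 255 CPM at 96 h and at 1086, 1013 and 1050 CPM at 24 h. In de novo purine synthesis 7 of 16 genes were higher and 1 lower, with and without replicate 3, and 0 were lower without CRCM 24 h replicate 2, CRCM 24 h replicate 3 or CRCM 96 h replicate 2. ADE17, of the last steps of IMP synthesis, was at 344, 321 and 362 CPM at 96 h and at 69.4, 81.8 and 96.6 CPM at 24 h.

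The question of whether these changes were particular to CRCM was addressed by testing the change with CRCM minus the change with water or NRCM. The 6656 genes of the 18 libraries were fitted together. Against water, the change was larger (more positive) with CRCM for 1249 genes (18.8%) and smaller for 1330 (20%). Against NRCM, it was larger for 1245 (18.7%) and smaller for 1259 (18.9%). These splits rested on the TMM factors, which differed between 24 h and 96 h in the water and NRCM cultures. Without them the median difference moved to -0.55 against water, with 458 genes larger and 3689 smaller, and to -0.36 against NRCM, with 482 larger and 2795 smaller. Of the 1581 genes higher at 96 h with CRCM, 513 also had a larger change than with water and 453 than with NRCM. Of the 1678 lower genes, 552 had a smaller change than with water and 467 than with NRCM. The change with CRCM enters both the call and the difference, so this overlap is partly built in. The 2 contrasts share the CRCM libraries.

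The phosphate transporters differed most from water. PHO89 averaged 660 ± 150 CPM at 96 h and 55.8 ± 14.5 CPM at 24 h with CRCM (SD, n = 3 each, scaled over 18 libraries). With water it averaged 17.2 ± 2.57 CPM at 96 h and 83.5 ± 33.2 CPM at 24 h, and with NRCM 21.9 ± 3.71 and 28.5 ± 9.30 CPM. Its change with CRCM exceeded that with water by 5.68 ± 0.41 (SE) on the log2 scale and that with NRCM by 3.88 ± 0.41. PHO84 was at 500.5, 780 and 810.7 CPM at 96 h and at 202.2, 172.7 and 174 CPM at 24 h with CRCM. With water it was at 137.9, 84.3 and 94.5 CPM at 96 h and at 897.8, 823 and 462.1 CPM at 24 h. PHO84 thus rose with CRCM and was lower at 96 h than at 24 h in every library with water.

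SSA3 and PDC1 differed between CRCM and water cultures at both times. SSA3 was at 202.1, 208.1 and 230.3 CPM at 24 h with CRCM, below the 1474 to 2109 CPM with water and the 1128 to 1328 CPM with NRCM, while the 96 h libraries with CRCM (1398 to 3275 CPM) lay above those with water (961 to 1157 CPM) and overlapped those with NRCM (1388 to 2161 CPM). PDC1 was at 6038 to 9173 CPM at 96 h with CRCM, above the 2446 to 3093 CPM with water and the 2659 to 3123 CPM with NRCM. PDC1 averaged 938 ± 369 CPM at 24 h with CRCM, against 4428 ± 468 CPM with water and 6513, 1771 and 1706 CPM in the 3 NRCM libraries. TIP1, a cell wall mannoprotein, did not pass the test with CRCM (log2 fold change 0.30, adjusted p = 0.065), with 170 to 193 CPM at 96 h and 137 to 175 CPM at 24 h in the 18-library scaling. With water TIP1 averaged 216 ± 28.5 CPM at 96 h and 2842 ± 723 CPM at 24 h. MRPS8 was at 17.4 to 18.3 CPM at 96 h and 69.4 to 80.1 CPM at 24 h with CRCM, against 23.7 to 26.5 CPM at 96 h and 25.2 to 28.3 CPM at 24 h with water. CHA1 averaged 18.6 ± 4.32 CPM at 96 h and 216 ± 19.3 CPM at 24 h with CRCM, and stayed between 7.30 and 15.5 CPM in all 6 water libraries. At 24 h with NRCM, CHA1 was at 30.1, 46.9 and 47.1 CPM, and NRCM 24 h replicate 1 was the library nearest to the water cultures for this gene and for MRPS8 and PDC1.

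**Figure D4:**
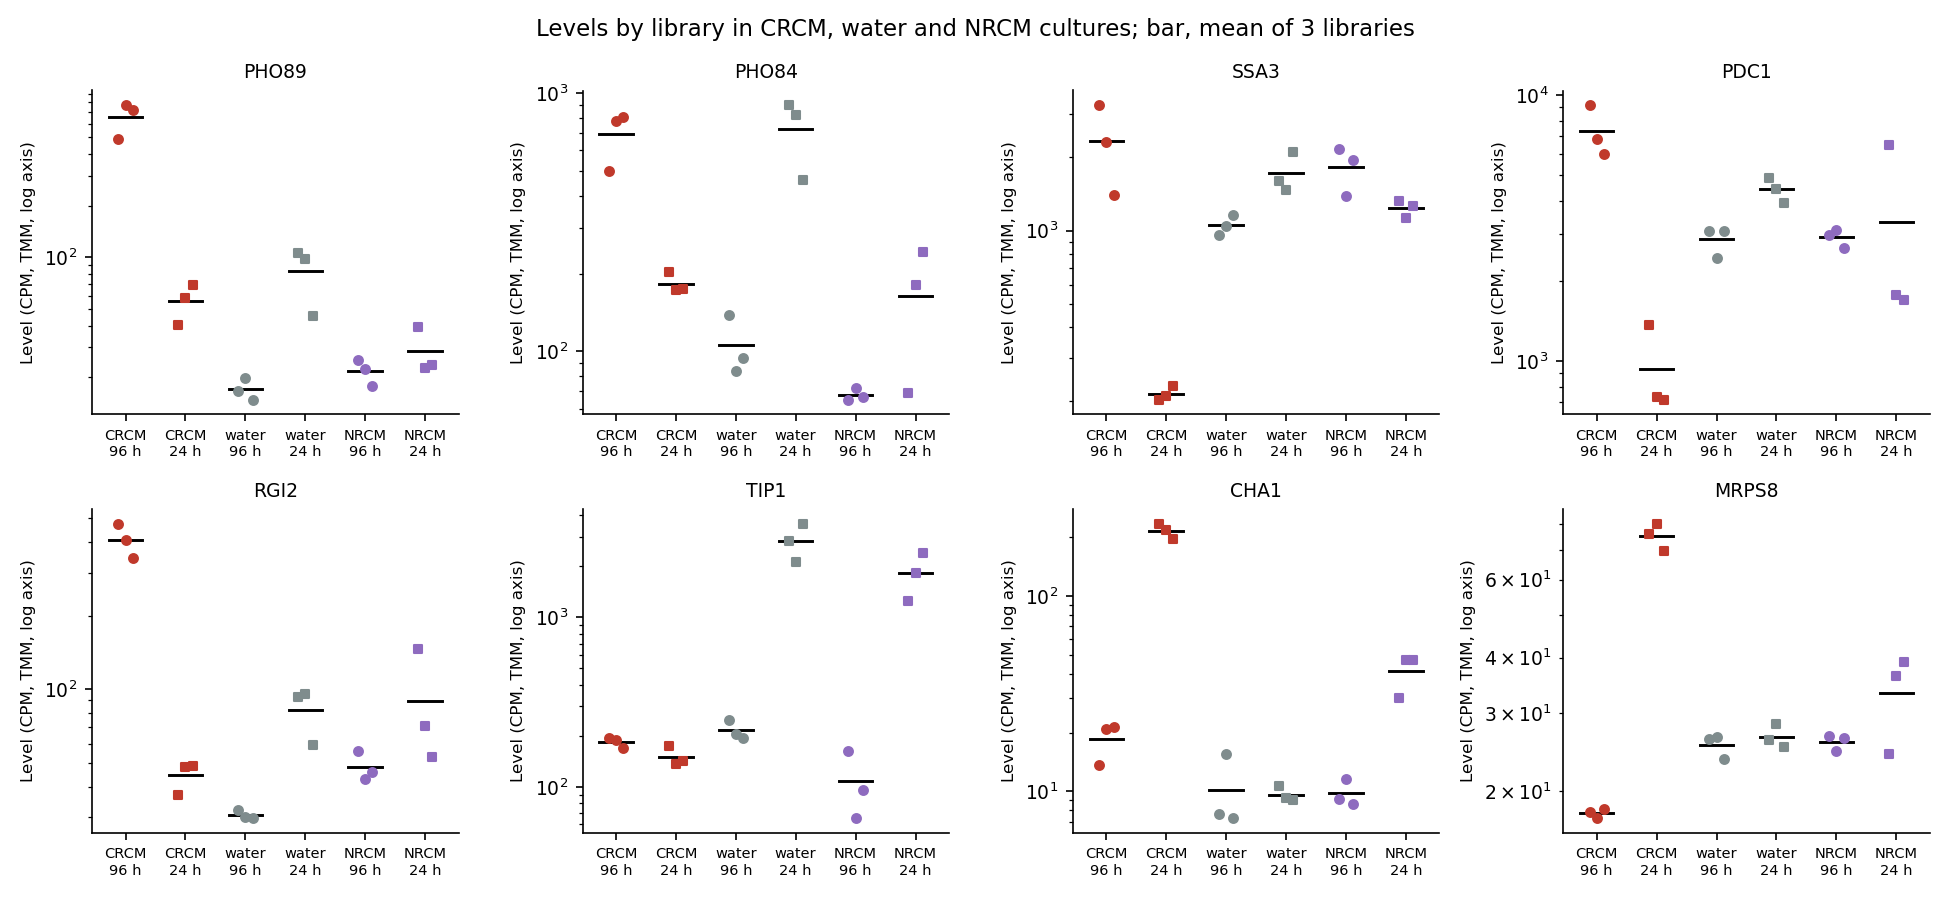
Level (CPM after TMM scaling over 18 libraries, log axes) of 8 genes in CRCM, water and NRCM cultures at 96 h (circles) and 24 h (squares), with bars at the mean of 3 libraries. PHO89 and RGI2 have their highest levels in CRCM cultures at 96 h, while SSA3 and PDC1 are lowest at 24 h with CRCM, PDC1 is highest at 96 h with CRCM and TIP1 is high at 24 h with water and NRCM.

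Over all 6656 genes fitted, the change with CRCM was larger than with water for 18.8% and smaller for 20%. Against NRCM these shares were 18.7% and 18.9%, and the list counts below are to be read beside them. For the mitochondrial ribosome the change with CRCM was smaller (more negative) than with water for 61 of 69 genes and than with NRCM for 54, and larger for 0 in both. The summed level was 3899 to 4515 CPM at 96 h and 7426 to 7725 CPM at 24 h with CRCM, against 3825 to 4040 CPM and 4005 to 4563 CPM with water. For glycolysis and fermentation the change was larger than that of water cultures for 19 of 21 genes and of NRCM cultures for 18, and smaller for 0 (without TMM factors, larger for 15 against water and smaller for 1). Their sum averaged 41261 ± 5068 CPM at 96 h and 31770 ± 5294 CPM at 24 h with CRCM, against 34045 ± 4011 CPM at 96 h and 107453 ± 12342 CPM at 24 h with water. Of the 137 cytosolic ribosomal protein genes, 35 had a larger change than in water cultures and 32 a larger one than in NRCM cultures, and without TMM factors these counts were 5 and 8, with 5 smaller in each. For the nuclear respiratory genes, 4 of 39 had a larger and 5 a smaller change than in water cultures, and 5 and 6 against NRCM. Without TMM factors these counts were 1 larger and 19 smaller against water, and 1 and 10 against NRCM. Chaperones had a larger change than with water in 22 of 24 cases (13 without TMM factors) and relative to NRCM in 10 (2 without TMM factors, with 3 smaller). The chaperone sum averaged 19895 ± 2307 CPM at 96 h and 15793 ± 478 CPM at 24 h with CRCM. With water it averaged 32648 ± 2492 CPM at 96 h and 62608 ± 9980 CPM at 24 h, and with NRCM 37438 ± 4004 and 41798 ± 4110 CPM. The chaperone sum was thus lowest with CRCM at both times. De novo purine synthesis had a larger change compared with water in 12 of 16 cases and compared with NRCM in 13, and without TMM factors these counts were 7, with 2 smaller, and 10.

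**Figure D5:**
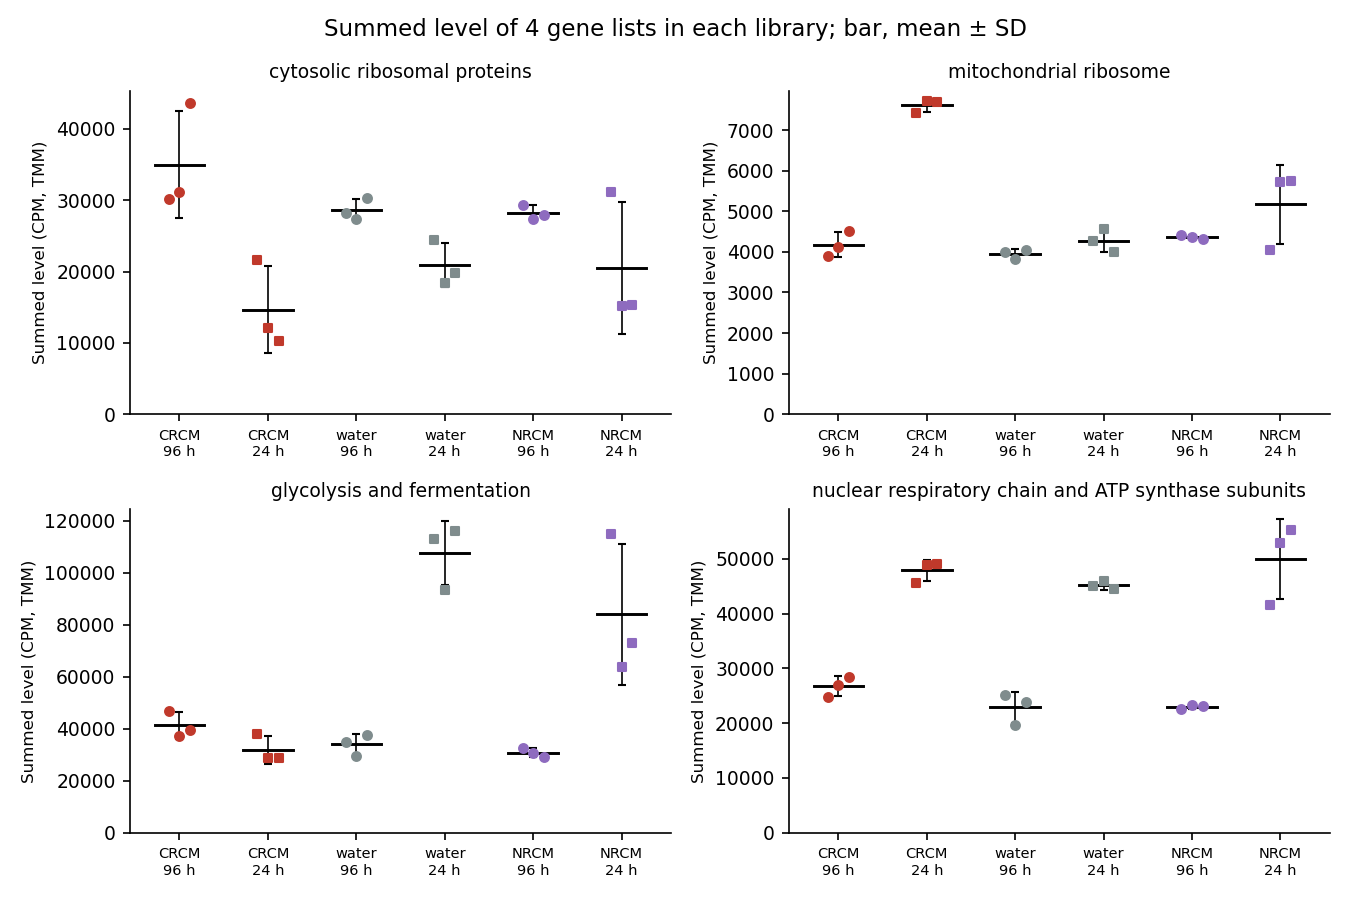
Summed level (CPM after TMM scaling over 18 libraries) of 4 gene lists in each library of CRCM, water and NRCM cultures at 96 h (circles) and 24 h (squares), with the mean and SD of 3 libraries. The mitochondrial ribosome is highest at 24 h with CRCM (7426 to 7725 CPM), and glycolysis and fermentation are at 28651 to 37882 CPM there, against 93309 to 116040 CPM at 24 h with water.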

How the data were processed

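Total RNA of the 27 cultures was poly(A)-selected and sequenced by the authors, who aligned the reads with Bowtie2 to sacCer3 (R64). The submitters' processing notes also name bedtools, edgeR and DESeq2. The step that assigned reads to 6692 genes, and whether it used strand, are not given in the sources used here. The deposited table gives each gene's share of its library, a signal with columns that sum to 1, which was multiplied by 1000000 to give CPM. Library totals were recovered from the steps between low values (all testable values were whole within 0.1 read) and served for the count tests. Genes at 1 CPM or more in 3 libraries were tested with limma 3.58.1 on log2(CPM + 1) with TMM factors (edgeR 4.0.16) and Benjamini-Hochberg adjustment at 0.05, over the 6 CRCM libraries, or over 18 for differences from water and NRCM. The fold change of low genes is understated on this scale. A level of 1 CPM was 7.82 reads in the shallowest library, so error of counting is not small for genes near that level. How it compares with replicate spread was not tested. The scripts were tested on simulated data. No authors' comparison was used.

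Named genes passed the test at a mean of 10 CPM or more in the higher group, with no overlap of groups and the same call without CRCM 96 h replicate 3. From these came the 12 largest changes each way and up to 5 genes each way per list. For the differences from water and NRCM, the 8 largest each way were taken among genes with an adjusted p of the difference under 0.05 and 10 CPM or more in 1 of the 4 groups compared, whether or not they passed with CRCM (ANB1, ENO2 and TIP1 did not, and Q0182 was too low to be tested there). FTR1, HSP78, PHO11, STE2, MFA1, MFA2, STE3 and SAG1 fall outside the rule and were chosen after their values were seen. The gene lists (41) and the comparison were chosen with earlier results of these data known, and 4 list entries matched no row of the table. 6008 genes matched RefSeq, whose assembly gave all sequences and positions. Alternatives were other scalings, pseudocounts and filters, a fit of all 27 libraries, edgeR, DESeq2 1.42.0, a replicate block and leaving out each library.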

Additional observations from a re-analysis of the deposited data

Results flagged for a closer look

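LEU2 at 68.1 CPM and URA3 at 11.7 CPM in CRCM 96 h replicate 3 were signals from genes that the strain lacks, and no other library exceeded 0.174 CPM for LEU2 or 0.177 CPM for URA3. Their source was not tested.

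The change from 24 h to 96 h differed between CRCM and water for 1249 genes in the larger and 1330 in the smaller direction, and between CRCM and NRCM for 1245 and 1259. Against water, the differences furthest above 0 (log2 scale, adjusted p under 0.05) were those of PHO89 (5.68), PHO84 (4.64), RGI2 (4.54), SSA3 (4.06), TIP1 (3.98), PMA2, a plasma membrane proton pump (3.72), PDC1 (3.64) and ANB1, a hypoxic form of translation factor eIF5A (3.51). ANB1 rested on CRCM 96 h replicate 3, at 108.3 CPM against 4.15 and 2.53 CPM in replicates 1 and 2, and its difference without that library was 1.95. The furthest below 0 were those of CHA1 (-3.49), the mitochondrial reading frame Q0182 (-2.17), MRPS8 (-1.95), CIP1 (-1.91), the meiotic activator IME1 (-1.80), the flavohemoglobin YHB1 (-1.79), PHD1 (-1.76) and the uracil permease FUR4 (-1.73). Q0182 was near the floor with CRCM, at means of 0.58 CPM at 96 h and 0.75 CPM at 24 h. With water it averaged 28.4 ± 20.2 and 6.16 ± 4.67 CPM (SD, n = 3 each), so its difference rested on the water libraries.

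Against NRCM, the furthest above 0 were TIP1 (4.41), RGI2 (3.93), PHO89 (3.88), HXT14 (3.87), LDS1 (3.70), CDA2 (3.65), ANB1 (3.59, or 2.03 without CRCM 96 h replicate 3) and ENO2 (3.27). The furthest below 0 were CYC7 (-2.89), PHD1 (-2.43), SER3 (-2.09), IME1 (-2.04), MMO1 (-1.96), COM2 (-1.90), GIS4 (-1.78) and CIN5 (-1.75). IME1 was at 14.5 to 23.0 CPM at 96 h and 10.3 to 12.5 CPM at 24 h with CRCM, against 91.7 to 124.2 CPM at 96 h and 11.6 to 23.8 CPM at 24 h with NRCM. MMO1 lies beside PHD1 on chromosome XI.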

How the results depend on the processing

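Leaving out each library in turn gave 1007 to 2093 genes higher at 96 h and 1169 to 1932 lower, where 1007 was without CRCM 24 h replicate 2 and 2093 without CRCM 96 h replicate 3. It gave 1106 to 1540 genes with a larger and 959 to 1433 with a smaller change than with water, and 1067 to 1370 and 957 to 1456 than with NRCM. Without TMM factors these differences numbered 458 larger and 3689 smaller against water, and 482 and 2795 against NRCM. Every other alternative stayed within 1.5 times the reported counts. A replicate block in the model gave 1179 higher and 1336 lower genes, of which 1173 and 1330 were shared with the fit without it, and the differences numbered 1073 and 1049 against water and 1034 and 1008 against NRCM. Deviations of libraries with the same number at the 2 times correlated at -0.38, 0.0663 and -0.371 across genes. CRCM 24 h replicate 1 and CRCM 96 h replicate 3 each deviated against the others of their group. These values therefore cannot decide whether the numbers pair the samples. Of 286 named genes, 235 were called under all 16 alternatives, the 24 with the largest changes among them, and 0 reversed. Part of this stability was built in, because named genes had to show no overlap and the same call without CRCM 96 h replicate 3. Genes called at under 10 CPM rest on few reads in the shallowest library.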

Other observations

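Of 103 tested genes within 10 kb of an end, 50 were higher and 18 lower at 96 h with CRCM, with a median log2 fold change of 0.46, and of 260 genes between 10 and 30 kb from an end, 74 were higher and 64 lower, with a median of 0.01. The first count was 28 without CRCM 24 h replicate 1, 26 without CRCM 24 h replicate 2, 29 without CRCM 96 h replicate 2 and 63 without CRCM 96 h replicate 3. Without CRCM 96 h replicate 3, 93 genes between 10 and 30 kb from an end were higher and 77 lower. The COS family, whose members lie near chromosome ends and act in membrane protein sorting, went the other way: 9 of 10 were lower and 0 higher, with and without CRCM 96 h replicate 3, and COS3 was at 44.6, 46.6 and 41.0 CPM at 96 h and at 111, 114 and 116 CPM at 24 h. COS genes are near-identical to each other, so single values are uncertain, and both position lists were added after the first results.

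Genes of cyclins and DNA replication were higher in 18 of 39 cases and lower in 2 (18 and 3 without CRCM 96 h replicate 3, and 1 lower without any single 24 h library or CRCM 96 h replicate 2). RNR2, a subunit of ribonucleotide reductase, was at 607, 397 and 325 CPM at 96 h and at 167, 152 and 155 CPM at 24 h. Among a-specific and mating genes 7 of 16 were higher and 2 lower (9 and 2 without CRCM 96 h replicate 3, and 1 lower without CRCM 24 h replicate 2 or replicate 3), led by the agglutinin anchor AGA1 at 358 ± 189 CPM at 96 h and 66.1 ± 15.6 CPM at 24 h (SD, n = 3 each), and the pheromone protease BAR1 was at 128, 104 and 110 CPM at 96 h and at 73.1, 53.0 and 46.1 CPM at 24 h. Of 25 ergosterol synthesis genes 7 were higher and 7 lower (8 and 9 without CRCM 96 h replicate 3, and 4 higher without CRCM 24 h replicate 2): the C-4 methyl oxidase ERG25 rose by 2.06 and the sterol reductase ERG4 fell by 1.44. Of 25 autophagy genes 3 were higher and 5 lower, and without CRCM 96 h replicate 3 these counts were 10 and 4. Without CRCM 24 h replicate 2, 1 autophagy gene was higher and 2 lower, and the lower count was 2 or 3 without CRCM 24 h replicate 1, CRCM 24 h replicate 3 or CRCM 96 h replicate 2.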
